A study of Mus musculus with 42 samples.

Results

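The HoxB cluster is a row of genes for homeodomain transcription factors, read here in adult mouse reproductive tracts whose Hoxa9, Hoxa10 and Hoxa11 genes, Hoxd9, Hoxd10 and Hoxd11 genes, or both sets carried mutations. Its 10 protein-coding members are Hoxb1 to Hoxb9 and Hoxb13. A member was measured by the probe sets whose only gene symbol in the platform annotation was its own. This found 9 of the 10 members, each with 1 probe set, among 19938 genes. Hoxb8 had no probe set of its own: its only probe set also names Hoxb7 and was kept apart.

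RNA was measured on 42 whole-transcript arrays, 3 for each of 14 groups. All mice were adults of the CD1/129 background, aged 3 to 7 months, and the female tracts were taken at diestrus. The labels give AKO as Hoxa9,10,11-/-, DKO as Hoxd9,10,11-/-, AKDH as Hoxa9,10,11-/-d9,10,11+/- and AHDK as Hoxa9,10,11+/-d9,10,11-/-. WT mice carried none of these mutations. Uterus and vas deferens came from all 5 genotypes, oviduct and epididymis from AKO and WT mice. None of the mutations touches the HoxB cluster, the labels name no tissue-restricted driver, and each array holds RNA of a whole tissue, so fewer cells of a type and less RNA per cell cannot be told apart.

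Hox genes stand in 4 clusters, A to D, and within each cluster their order along the chromosome follows the head-to-tail order in which they are used in the embryo. Genes with the same number in different clusters are paralogs, and paralogs can partly cover for each other. In the reproductive tract the Abd-B-type genes, from number 9 up, are known for setting the identity of oviduct, uterus, epididymis and vas deferens along the duct. They bind DNA with PBX, MEIS and PREP partner proteins.

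The deposited values are centred: within each sex, the middle one of the 21 arrays is 0 for every probe set. A value is therefore the log2 distance of an array from the middle array of its sex for that gene, with the log base taken as 2. It gives no absolute level, so levels of different genes and of female and male tissues are not compared, and whether a gene is expressed at all cannot be read. The number of arrays limits the precision. The medians of single arrays lay between -0.0538 and 0.0371, and no 2 arrays of a group were identical. Hoxa11, a targeted gene, was at -0.63 to -0.37 in AKO vas deferens and at 0.43 to 1.38 in WT vas deferens. Hoxd9 was at -0.86 to -0.56 in DKO vas deferens, against -0.26 to -0.13 in WT vas deferens, and in DKO uterus at 0.00 to 0.31, against -0.10 to 0.50 in WT uterus, so its probe set does not check the labels of the DKO uteri. The WT oviduct replicate 2 stood apart from the other female arrays, with Xist at -5.92 and an ovary marker score of 2.61. Xist was at 0.00 and -0.40 in the other WT oviducts. The Y-linked genes Eif2s3y and Uty were at 2.09 and 1.77 in replicate 2, so these genes do not bear out its label as female tissue. How much of its RNA is female was not tested. AKDH vas deferens replicate 3, with a motile cilia score of 1.15, and AKO epididymis replicate 1 were also set apart. No value that sets AKO epididymis replicate 1 apart is given here. These arrays stayed in the main fits.

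Differences were tested with limma over all 19938 genes, and a gene was called at a Benjamini-Hochberg adjusted p below 0.05. Over 22 comparisons, 14 of 198 member values were called, 6 up and 8 down. Against WT, the mutants gave 3 calls in 90 values, all rises in the vas deferens. Between mutants there were 2 calls in 54 values. Between the segments of a tract there were 8 calls in 36 values, 7 of them falls in the upper segment (oviduct or epididymis). The difference of the AKO effects between segments gave 1 call in 18 values. Over all genes too, more were called between segments (15.5% to 28.1%) than in most comparisons of mutants with WT (0% to 24.3%), so this spread is not particular to HoxB. Hoxb4 was called in 4 comparisons, Hoxb9 in 3, Hoxb5 and Hoxb7 in 2 each, Hoxb2, Hoxb3 and Hoxb6 in 1 each, and Hoxb1 and Hoxb13 in 0. The largest member difference against WT was 0.77 on the log2 scale, for Hoxb9 in AHDK vas deferens, and it was not called.

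**Figure D1:**
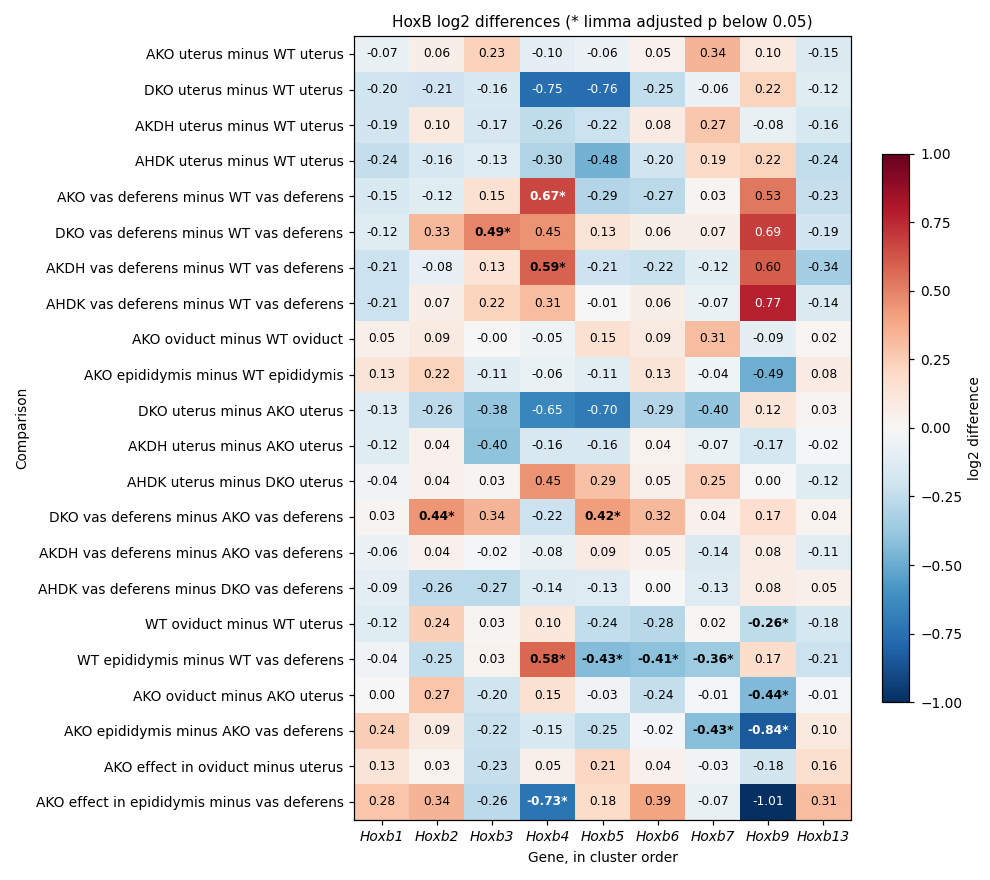
Log2 differences of the 9 measured HoxB genes (columns, in cluster order) in 22 comparisons (rows), the first-named group minus the second or, in the bottom rows, the difference of the AKO effects. Asterisks mark the 14 values with a limma adjusted p below 0.05: in the mutant against WT rows they stand at Hoxb4 and Hoxb3 in vas deferens.

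The gene called in most comparisons was Hoxb4, known for its use in the hindbrain and in blood stem cells. In AKO vas deferens Hoxb4 was at 0.18, 0.12 and 0.10, and in WT vas deferens at -0.80, -0.63 and -0.16. The groups did not overlap, and the 3 WT vas deferens arrays spread far more widely than the 3 AKO arrays. Hoxb4 rose by 0.67 (SE 0.17, adjusted p = 0.0270). In AKDH vas deferens Hoxb4 was at 0.24, 0.05 and -0.12, all above WT, and rose by 0.59 (SE 0.17, adjusted p = 0.0246). DKO vas deferens, at -0.20, 0.00 and -0.05, and AHDK vas deferens, at -0.06, -0.57 and -0.04, each overlapped WT. Their differences from WT were 0.45 (adjusted p = 0.149) and 0.31, not called. These comparisons share the 3 WT arrays, and WT vas deferens had the lowest mean of Hoxb4 of all 7 male groups (-0.53 ± 0.33, SD, n = 3).

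The upstream window of Hoxb4 is printed because Hoxb4 had more calls than any other member. It covers the 250 bases before the annotated start in RefSeq, build GRCm38.p6, chr11:96318017-96318266, plus strand, and capitals mark the TAAT core that many homeodomains bind, searched on both strands.

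Hoxb4 upstream: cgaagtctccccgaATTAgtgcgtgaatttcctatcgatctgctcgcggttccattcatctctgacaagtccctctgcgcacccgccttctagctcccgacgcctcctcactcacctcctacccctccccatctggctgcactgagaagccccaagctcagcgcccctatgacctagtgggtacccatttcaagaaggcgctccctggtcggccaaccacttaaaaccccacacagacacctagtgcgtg

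The window held 1 TAAT. Of 32851 upstream windows of this length, 54.9% held at least 1. TTTAT, a core bound by Abd-B-type proteins, occurs in 37.3% of windows and TGATNNAT, a PBX-Hox core, in 7.68%, and neither was found in the Hoxb4 window. A match is a run of letters and does not show binding.

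The rises of Hoxb4 in vas deferens stood beside shifts in tissue markers. The smooth muscle score, the mean of 12 markers, was -0.36 to 0.09 in AKO and -0.45 to -0.05 in AKDH vas deferens, against 0.27 to 0.75 in WT vas deferens. Of the 12 smooth muscle markers 3 were called down in AKO and 10 in AKDH, against 9.35% and 24.3% of all genes called. The adipocyte score, the mean of 10 markers, was 0.34 to 1.39 in AKO and 1.29 to 1.52 in AKDH, against -0.96 to 0.20 in WT, with 7 and 9 of the 10 called up. AHDK vas deferens had an adipocyte score of 1.09 to 1.68, with 9 markers called up, and its Hoxb4 was not called. Because values are centred, a marker at 0 is at the middle array and not undetected. With the smooth muscle score in the fit, a setting chosen after seeing the data, the Hoxb4 difference was 0.35 (adjusted p = 0.377) in AKO and 0.17 (adjusted p = 0.684) in AKDH. With the adipocyte score it was 0.50 (adjusted p = 0.498) and 0.35 (adjusted p = 0.696). Neither score overlapped between AKO or AKDH and WT vas deferens, so these fits cannot part the score from the genotype. The part of tissue make-up in the Hoxb4 rise was not tested beyond these fits. The AKO call was also lost without AKO replicate 1, 2 or 3 or WT replicate 1 or 2, with Hoxb4 differences of 0.53 to 0.68, and the AKDH call without AKDH replicate 1 or 2 or WT replicate 1 or 2, with differences of 0.45 to 0.59. Without WT replicate 3 they were 0.85 in AKO and 0.77 in AKDH, and both calls held. Both calls were lost in fits of only the mutant and WT arrays.

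Hoxb3, the neighbour of Hoxb4 and another gene of the hindbrain set, was the member called in DKO vas deferens. Hoxb3 was at 0.35, 0.40 and 0.41 in DKO vas deferens, against -0.31, -0.08 and 0.08 in WT vas deferens. The 3 DKO arrays were the highest of the 21 male arrays, and the next was AHDK replicate 1 at 0.33. The rise was 0.49 (SE 0.12, adjusted p = 0.0376). The call was lost without WT replicate 1 or 2, any DKO replicate, AKO replicate 2, AKDH replicate 2 or AHDK replicate 3, with Hoxb3 differences of 0.39 to 0.51. The smooth muscle score of DKO vas deferens, 0.56 to 0.83, overlapped that of WT. With that score in the fit, a setting chosen after seeing the data, Hoxb3 differed by 0.53 (adjusted p = 0.0260). The call was lost with the adipocyte score in the fit. It was also lost under quantile normalization, with a replicate block and in the fit of DKO and WT alone. In all it held in 13 of 25 alternatives. The part of tissue make-up in the Hoxb3 rise was not tested beyond these fits.

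Hoxb9, the first Abd-B-type gene of the cluster and the paralog of the targeted Hoxa9 and Hoxd9, was higher on average in all 4 mutant vasa deferentia without a call. AKO vas deferens had Hoxb9 at 0.52, -0.31 and 0.13, and DKO had it at 0.26, 0.63 and -0.06. AKDH had it at 0.32, 0.22 and 0.03, and AHDK at 0.37, 0.13 and 0.56, against -0.41, -0.18 and -0.65 in WT. DKO, AKDH and AHDK lay wholly above WT, and AKO overlapped it. The differences were 0.53 (adjusted p = 0.168), 0.69 (0.0887), 0.60 (0.0634) and 0.77 (0.0748) in AKO, DKO, AKDH and AHDK. All 4 share the WT arrays. In AKDH, Hoxb9 was called in 4 of 25 alternatives, among them the fit of AKDH and WT alone (adjusted p = 0.0451) and the fits without AKO replicate 1 or 2. The 95% intervals of the 4 differences together spanned 0.05 to 1.24.

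**Figure D2:**
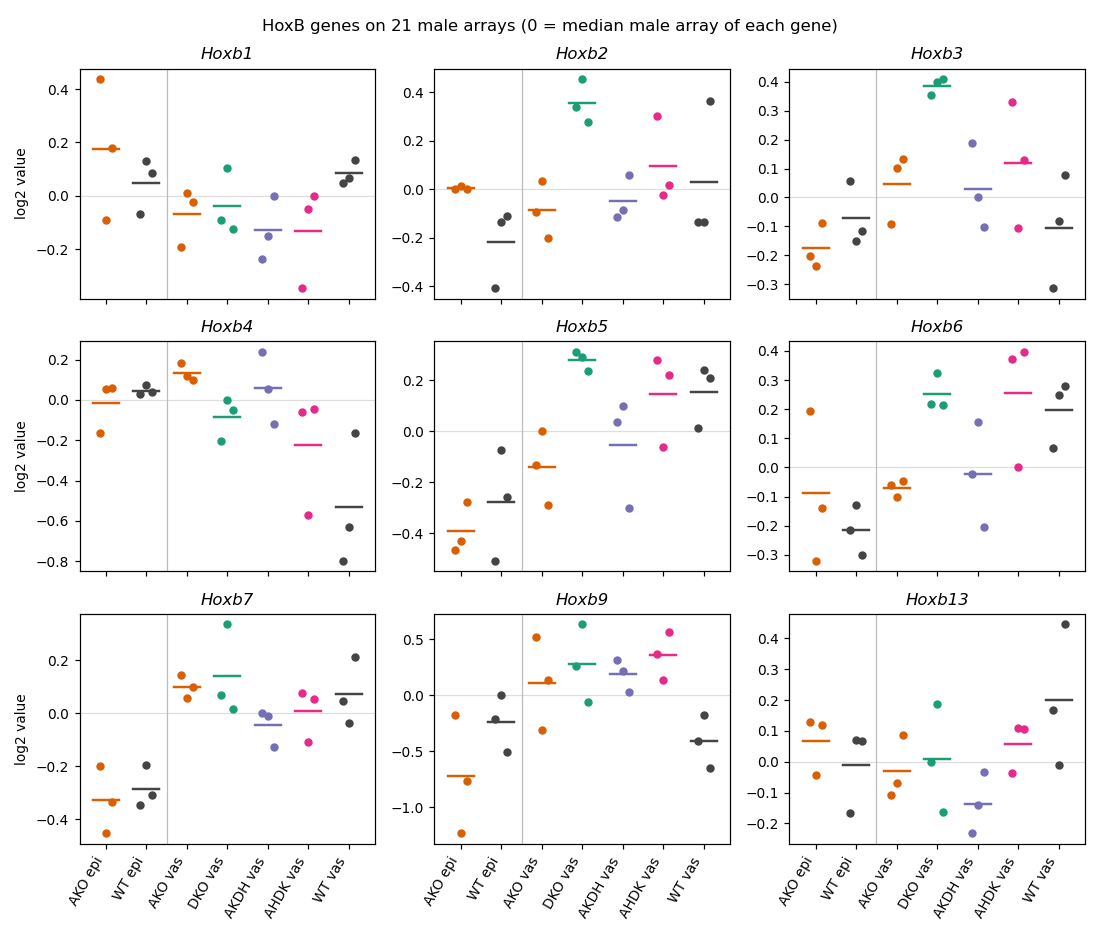
Log2 values of 9 HoxB genes on 21 male arrays, with 1 point per array and a bar at each group mean (n = 3); epididymis is left of the grey line and vas deferens right of it, mutants left of WT. In the Hoxb4 panel 2 of the 3 WT vas deferens arrays are the lowest of all, and in the Hoxb9 panel the WT vas deferens arrays lie below most mutant vas deferens arrays.

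Counts over the whole cluster in vas deferens were read against those of all genes, and with 9 members each count rests on few genes. In AKO vas deferens 1 of 9 members was called, against 9.35% of all genes. In DKO it was 1 of 9, against 5.87%, and in AKDH 1 of 9, against 24.3%. In AHDK none was called by limma, with 2 at an unadjusted p below 0.05, against 4.15% of all genes. The member medians were -0.12, 0.13, -0.12 and 0.06 in AKO, DKO, AKDH and AHDK, against medians over all genes of -0.02, 0.02, -0.05 and -0.01. By complete separation of the 3 mutant from the 3 WT arrays, 4 members stood apart in AKO (33.1% of all genes), 2 in DKO (30.0%), 4 in AKDH (41.5%) and 2 in AHDK (21.5%). Hoxb13, the most posterior member and known in the prostate, was lower in AKDH vas deferens, at -0.23, -0.14 and -0.03, against 0.17, -0.01 and 0.45 in WT. Its difference of -0.34 was not called (adjusted p = 0.0517). Hoxb13 was called in 5 of 25 alternatives, among them without AKDH replicate 3, which stood apart (-0.39, adjusted p = 0.0492), without WT replicate 2 (-0.44, adjusted p = 0.0256) and without DKO replicate 2 or 3. Hoxb1, the most anterior member, had differences of -0.21 to -0.12 in the 4 mutants, with no call.

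Between mutants of the vas deferens, Hoxb2 and Hoxb5 were called higher in DKO than in AKO tissue. Hoxb2 was at 0.34, 0.46 and 0.28 in DKO and at -0.09, 0.04 and -0.20 in AKO vas deferens. Hoxb5 was at 0.31, 0.29 and 0.24 in DKO and at -0.13, 0.00 and -0.29 in AKO. Neither gene overlapped between the groups. The share of all genes that separated in this way was not counted for comparisons between mutants. Hoxb2 was higher by 0.44 (SE 0.13, adjusted p = 0.0353) and Hoxb5 by 0.42 (SE 0.12, adjusted p = 0.0299). Hoxb6 (0.32, adjusted p = 0.0639) and Hoxb3 (0.34, adjusted p = 0.0762) also stood apart without a call. Hoxb4 lay the other way, with all DKO arrays below the AKO arrays and a difference of -0.22 (adjusted p = 0.424), and Hoxb1 and Hoxb7 differed by 0.03 and 0.04. In all 2 of 9 members were called, against 17.8% of all genes, and the member median was 0.17, against 0.03 over all genes. Both calls were lost without any 1 of the DKO replicates or AKO replicate 1 or 3, with Hoxb2 differences of 0.39 to 0.48 and Hoxb5 differences of 0.34 to 0.44. The smooth muscle score differed as well, with 10 of 12 markers called higher in DKO. With that score in the fit Hoxb2 had an adjusted p of 0.0663 and Hoxb5 of 0.160, while Hoxb6 was called (0.58, adjusted p = 0.0351). The score was chosen after seeing the data and did not overlap between DKO and AKO. This fit therefore cannot part the score from the genotype. Between AKDH and AKO, and between AHDK and DKO, no member was called by limma, with 0 and 1 at an unadjusted p below 0.05, against 1.29% and 0.366% of all genes.

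In the uterus no HoxB gene was called in any mutant. The lowest values were those of DKO uterus. Hoxb5, a gene used in lung and gut, was at -0.43, -0.28 and -0.75 in DKO uterus, against 0.44, 0.21 and 0.19 in WT uterus. Hoxb4 was at -0.32, -0.68 and -1.0 in DKO uterus, against 0.00, 0.13 and 0.12 in WT. Neither gene overlapped between these groups. The differences were -0.76 for Hoxb5 (SE 0.20, adjusted p = 0.0900) and -0.75 for Hoxb4 (SE 0.22, adjusted p = 0.124). AKDH uterus replicate 1 bore on this: its Hoxb5 was 0.58, against -0.33 and -0.06 in the other AKDH uteri. Without it, Hoxb5 was called lower in DKO than in WT uterus (-0.76, adjusted p = 0.0369) and lower in DKO than in AKO uterus (-0.70, adjusted p = 0.0424). In AHDK uterus Hoxb5 was at -0.17, -0.23 and -0.19, below all WT uteri, with a difference of -0.48 (adjusted p = 0.195). In a fit of the AHDK and WT arrays alone it was called (adjusted p = 0.0484).

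**Figure D3:**
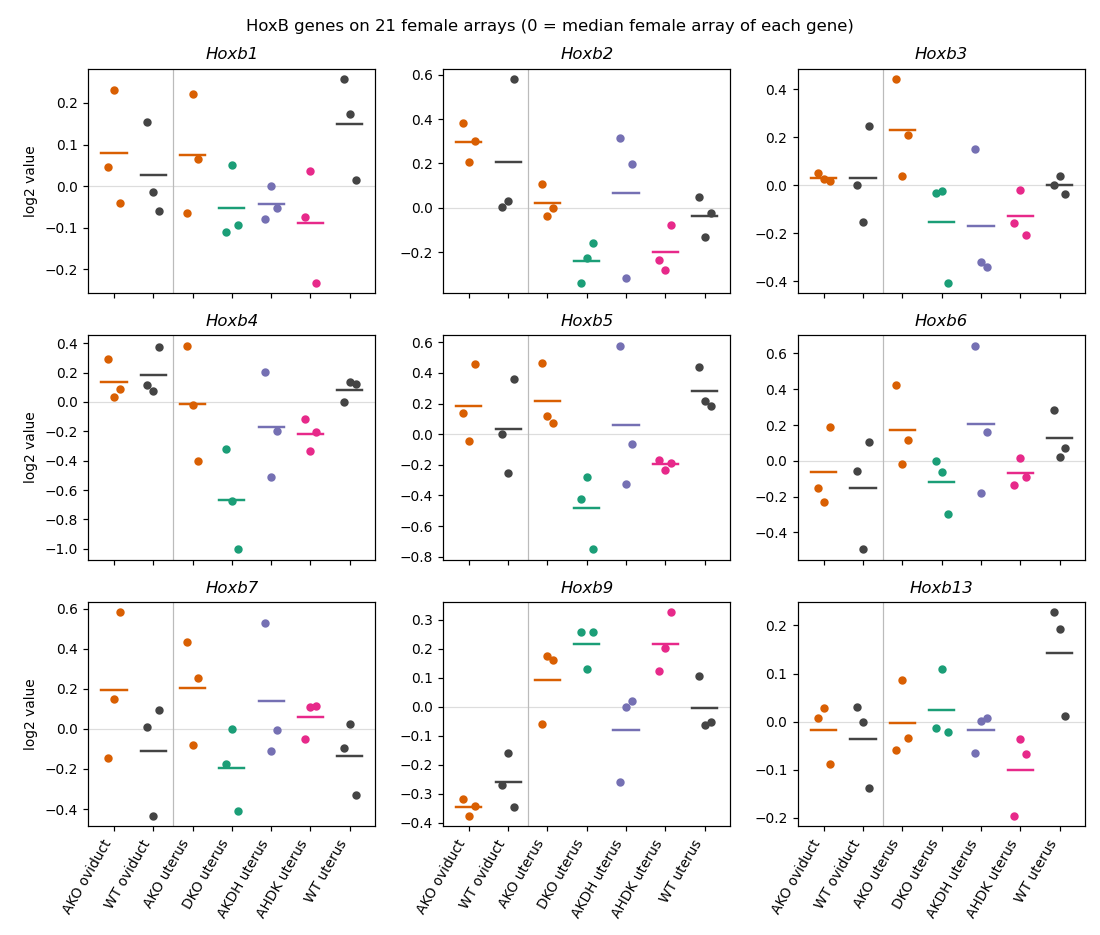
Log2 values of 9 HoxB genes on 21 female arrays, with 1 point per array and a bar at each group mean (n = 3); oviduct is left of the grey line and uterus right of it, mutants left of WT. Hoxb4 and Hoxb5 are lowest in DKO uterus, and the Hoxb9 points of both oviduct groups lie below 0.

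Across the uterus the counts read as follows. In AKO uterus 0 of 9 members were called by limma, with 0 at an unadjusted p below 0.05, against 0.0903% of all genes. In DKO uterus it was 0, with 3 unadjusted, against 0.973%. In AKDH uterus it was 0, with 1 unadjusted, against 6.58%, and in AHDK uterus 0, with 4 unadjusted, against 3.53%. The member medians were 0.05, -0.20, -0.16 and -0.20 in AKO, DKO, AKDH and AHDK, against 0.01, 0.01, -0.01 and -0.02 over all genes. Complete separation from WT was seen for 0 members in AKO (12.8% of all genes), 5 in DKO (20.9%), 2 in AKDH (26.7%) and 5 in AHDK (29.6%). Among the 5 in DKO and the 5 in AHDK, 4 lay below WT and Hoxb9 lay above. Hoxb9 was at 0.26, 0.13 and 0.26 in DKO uterus and at 0.12, 0.20 and 0.33 in AHDK uterus, against 0.11, -0.06 and -0.05 in WT uterus. Both differences were 0.22, with adjusted p values of 0.297 and 0.207.

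Marker scores also differed in the same uteri. The epithelium score, over 11 markers, was -0.57 to -0.20 in DKO, 0.22 to 0.26 in AHDK and -0.22 to -0.03 in WT uterus, with 0 of 11 called by limma in either mutant and 2 and 4 at an unadjusted p below 0.05. The macrophage score was 0.21 to 0.80 in DKO and 0.54 to 0.96 in AHDK uterus, against -0.37 to -0.06 in WT, with 2 and 7 of 12 markers called up. The mean of 63 small nuclear, nucleolar and Y RNA genes was at most 0.47 in any mutant uterus, against 0.55 to 0.96 in WT uterus. Their part in the HoxB values was not tested, except that with the small RNA score in the fit no member was called in the uterus either. Between mutants of the uterus no member was called by limma. DKO against AKO had 4 members at an unadjusted p below 0.05 (0.186% of all genes called), AKDH against AKO had 1 (0% called, with 2063 genes unadjusted) and AHDK against DKO had 0 (0.0251% called).

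In the upper segments the AKO genotype left the HoxB genes without a call. In AKO against WT oviduct 0 of 9 members were called by limma and 0 had an unadjusted p below 0.05. This fit kept WT oviduct replicate 2, which stood apart and had the lowest Hoxb6 (-0.49) and Hoxb7 (-0.44) of the WT oviducts. Without it 0 members were called as well. Over all genes 0% were called, with 609 at an unadjusted p below 0.05. No member stood apart in the oviduct, against 8.65% of all genes. In AKO against WT epididymis 0 of 9 were called, with 0 unadjusted, against 0.782% of all genes. Only Hoxb2 stood apart there, against 22.1% of all genes, at 0.00, 0.01 and 0.00 in AKO and -0.41, -0.13 and -0.11 in WT epididymis. The widest difference was that of Hoxb9, at -0.18, -1.24 and -0.76 in AKO epididymis, against -0.21, 0.00 and -0.51 in WT. These overlapped, and the 95% interval of the difference of -0.49 ran from -1.16 to 0.19.

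Between the male segments, Hoxb7 was called lower in the epididymis in both genotypes, Hoxb5 and Hoxb6 in WT and Hoxb9 in AKO, while Hoxb4 was called higher in WT. The posterior Hoxb9 and Hoxb13 were not called in WT (0.17 and -0.21), nor Hoxb13 in AKO (0.10). Hoxb7, known in the kidney's collecting duct, was at -0.35, -0.20 and -0.31 in WT epididymis, against 0.05, -0.04 and 0.21 in WT vas deferens. In AKO mice it was at -0.20, -0.45 and -0.33 in the epididymis, against 0.14, 0.06 and 0.10 in the vas deferens. All 6 epididymis arrays lay below all 6 vas deferens arrays of these genotypes. The share of all genes that separated between segments was not counted for either tract. Hoxb7 was lower by -0.36 in WT (SE 0.09, adjusted p = 0.00578) and by -0.43 in AKO (SE 0.09, adjusted p = 0.00347). These calls held in all 15 alternatives run for each, with adjusted p values of 0.00435 to 0.0378 in WT and 0.00191 to 0.0199 in AKO.

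Hoxb5 and Hoxb6, its neighbours, followed in WT mice. Hoxb5 was at -0.51, -0.07 and -0.26 in WT epididymis, against 0.01, 0.24 and 0.21 in WT vas deferens. Hoxb6 was at -0.22, -0.13 and -0.30 in WT epididymis, against 0.07, 0.25 and 0.28 in WT vas deferens. Neither overlapped. The differences were -0.43 for Hoxb5 (adjusted p = 0.0148) and -0.41 for Hoxb6 (adjusted p = 0.0194). The Hoxb5 call was lost without WT epididymis replicate 1 or WT vas deferens replicate 2 (differences of -0.32 and -0.39). The Hoxb6 call was lost without WT epididymis replicate 3 or WT vas deferens replicate 2 or 3 (differences of -0.37 to -0.39). In AKO mice the same differences were -0.25 for Hoxb5 and -0.02 for Hoxb6, not called, and the AKO and WT differences were not shown to differ (0.18 with an adjusted p of 0.630, and 0.39 with an adjusted p of 0.215).

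Hoxb4 ran the other way in WT mice. It was at 0.03, 0.07 and 0.04 in WT epididymis, above the -0.80, -0.63 and -0.16 of WT vas deferens given before, a difference of 0.58 (SE 0.15, adjusted p = 0.00779). In AKO mice, at -0.16, 0.05 and 0.06 in the epididymis and 0.18, 0.12 and 0.10 in the vas deferens, the difference was -0.15. The AKO effect on Hoxb4 was thus -0.06 in the epididymis and 0.67 in the vas deferens, and the difference of these effects was -0.73 (SE 0.21, adjusted p = 0.0482). It was the 1 member called in that test, against 7.22% of all genes. With the replicate number as a block, 1 set of numbers for all 21 male arrays, Hoxb4 had an adjusted p of 0.0617. This block is not a pairing within each genotype, and whether same-numbered arrays come from the same mouse is not given. The call also needed every array but WT vas deferens replicate 3: without any other 1 of the 12, Hoxb4 differed by -0.59 to -0.77 with adjusted p values above 0.05. Without AKO epididymis replicate 1, set apart earlier with no value given for it, the difference was -0.65 (adjusted p = 0.107). Hoxb9 had a larger difference of AKO effects, -1.01 (SE 0.36, adjusted p = 0.109), not called. Without AKO epididymis replicate 1 it was -1.29 and called (adjusted p = 0.0311). That array had the highest Hoxb9 of the 3 AKO epididymis arrays (-0.18, against -1.24 and -0.76). All of these Hoxb4 results rest on the same 3 WT vas deferens arrays.

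Counted over the cluster, 4 of 9 members were called between WT epididymis and WT vas deferens, against 28.1% of all genes, and 2 of 9 in AKO mice, against 15.5%. The member medians were -0.21 and -0.15, against -0.01 and 0.02 over all genes. The second AKO call was Hoxb9, at -0.18, -1.24 and -0.76 in AKO epididymis, against 0.52, -0.31 and 0.13 in AKO vas deferens. It was lower by -0.84 (SE 0.25, adjusted p = 0.0342), and the groups overlapped. The Hoxb9 call was lost without AKO epididymis replicate 2 or 3 or AKO vas deferens replicate 1 or 3 (-0.58 to -0.83). The smooth muscle score was -1.72 to -1.24 in AKO epididymis, against -0.36 to 0.09 in AKO vas deferens, with 10 of 12 markers called lower. With that score in the fit Hoxb9 differed by -1.23 (adjusted p = 0.222). In WT mice all 12 smooth muscle markers were called lower in WT epididymis, with scores of -0.85 to -0.20 against 0.27 to 0.75 in WT vas deferens, and 10 of 12 sperm markers were called higher. With the smooth muscle score in the fit the WT differences were 0.23 for Hoxb4 (adjusted p = 0.608), -0.64 for Hoxb5, -0.75 for Hoxb6 and -0.61 for Hoxb7. The last 3 were still called, with Hoxb13 added (-0.57, adjusted p = 0.0200). This setting was chosen after seeing the data. In either genotype the score did not overlap between the segments, so these fits cannot part the score from the segment.

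In the female tract Hoxb9, known for its part in patterning the ribs, was the 1 member called between oviduct and uterus. In AKO mice Hoxb9 was at -0.32, -0.38 and -0.34 in the oviduct, against -0.06, 0.18 and 0.16 in the uterus. In WT mice it was at -0.27, -0.16 and -0.35 in the oviduct, against 0.11, -0.06 and -0.05 in the uterus. All 6 oviduct values lay below the uterus values of the same genotype. The difference was -0.44 in AKO (SE 0.09, adjusted p = 0.00193) and -0.26 in WT (SE 0.09, adjusted p = 0.0415). The AKO call held in all 15 alternatives run, with adjusted p values of 0.00105 to 0.0166. The WT call was lost without any 1 array other than WT oviduct replicate 2 (-0.20 to -0.29). It was also lost under quantile normalization, among the genes with the larger SD and in the fit of these WT groups alone. The smooth muscle score in the fit, a setting chosen after seeing the data, lost it too. In all the WT call held in 6 of 15 alternatives. In each genotype 1 of 9 members was called, against 17.8% of all genes in AKO and 23.9% in WT. The difference of the AKO effects had 0 of 9 members called by limma and 0 at an unadjusted p below 0.05, against 0% of all genes, with 847 unadjusted. Hoxb9 itself had a difference of -0.18 there. Motile cilia markers, of which 12 of 12 were called higher in oviduct in either genotype, had scores of 3.78 to 3.86 in AKO oviduct and 3.61 to 4.14 in WT oviduct. They were at -0.17 to 0.04 in AKO uterus and -0.08 to 0.00 in WT uterus.

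The probe set shared by Hoxb8 and Hoxb7 gave no call in the 22 comparisons, fitted over all 28856 probe sets. Its lowest adjusted p was 0.0556, for AKO epididymis (-0.35, -0.31 and -0.26) against AKO vas deferens (0.06, 0.16 and 0.19), a difference of -0.44. Its values cannot be split between the 2 genes. In AKO mice Hoxb7's own probe set had a difference of -0.43. Between WT epididymis and WT vas deferens the shared probe set differed by 0.01 (adjusted p = 0.971), against the called -0.36 of Hoxb7's own.

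The cluster also holds microRNA genes. Mir10a stands near Hoxb4 and Mir196a-1 near Hoxb9, and each has relatives with the same seed in the other clusters, shown to display the shared seeds. A HoxC gene, Mir196a-2, also gives miR-196a, so the miR-196a sequence is not that of the HoxB copy alone. Capitals mark the seed, bases 2 to 8 from the 5′ end; sequences and positions are from RefSeq, build GRCm38.p6.
mmu-miR-10a-5p (HoxB, chr11:96317186-96317208): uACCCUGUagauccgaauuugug
mmu-miR-10b-5p (HoxD, chr2:74726074-74726096): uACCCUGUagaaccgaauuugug
mmu-miR-196a-5p (HoxB, chr11:96265187-96265208): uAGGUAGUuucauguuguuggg
mmu-miR-196b-5p (HoxA, chr6:52230129-52230150): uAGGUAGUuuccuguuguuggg

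The miR-10 pair differs by U12A and the miR-196 pair by A12C, counted from the 5′ end of the first-named. Probe sets for such genes do not tell the mature form from its precursor. Mir10a was at -0.15, -0.07 and -0.02 in WT oviduct, against 0.20, 0.40 and 0.65 in WT uterus, and was lower by -0.50 (adjusted p = 0.0347). Mir10b and Mir196b were also lower in WT oviduct, by -1.78 and -1.47 (limma adjusted p = 4.86e-05 and 0.00356). Over all genes 23.9% were called between these groups. The mean of the 63 small RNA genes was -0.62 to 0.06 in WT oviduct and 0.55 to 0.96 in WT uterus, and its part was not tested. Mir196a-1 was at -0.14, -0.02 and -0.24 in AKO oviduct, against 0.10, 0.09 and 0.14 in AKO uterus, and was lower by -0.24 (adjusted p = 0.0132). Mir196a-2 and Mir10b were lower there as well, by -0.57 and -0.89 (limma adjusted p = 0.00651 and 0.0186), against 17.8% of all genes called. Mir10a and Mir196a-1 were not called in any mutant against WT.

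Mir10b, in the HoxD cluster, was called in mutants. It was lower in DKO, AKDH and AHDK uterus than in WT uterus by -1.66, -1.57 and -1.23 (adjusted p = 0.0316, 0.00838 and 0.0317). In AKO uterus, without a Hoxd mutation, it was lower by -1.32 and not called (adjusted p = 0.0881). In vas deferens it was higher in DKO and AKDH than in WT by 0.77 and 0.59 (adjusted p = 0.0229 and 0.0228). The AKO and AHDK differences there were 0.15 and 0.37, not called. Mir10a differed by -0.53, -0.38, -0.38 and -0.12 in DKO, AKDH, AHDK and AKO uterus. It differed by 0.30 and 0.21 in DKO and AKDH vas deferens. These were the same directions without a call, and Mir10a and Mir10b were not tested against each other. Mir196b, in the HoxA cluster, differed by -0.84, -0.94, -1.09 and -0.95 in AKO, DKO, AKDH and AHDK uterus, not called. The mean of the 63 small RNA genes also stood higher in WT uterus, as given before, and its part in these values was not tested. Hoxb3os and Hoxb5os had no probe set with a single symbol.

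Within groups, some members of the cluster moved together from array to array. After group means were removed, Pearson's r was computed for 72 pairs over 21 arrays a sex, with p from 100000 permutations within groups, adjusted over the 72. Arrays of a group share tissue and genotype, and each array gives both values, so array-wide deviations enter r. In females Hoxb5 and Hoxb6 had r = 0.94 (rho = 0.90, adjusted permutation p = 0.0101 and 0.0166). Without the 2 arrays farthest from the median of Hoxb5, r was 0.91. For each pair the 2 arrays left out were chosen on the first-named gene alone. Hoxb6 and Hoxb7 had r = 0.84 in females (rho = 0.81, adjusted permutation p = 0.0173 and 0.0347; 0.80 without 2 arrays). In males the same pair had r = 0.71 (rho = 0.77, adjusted permutation p = 0.0173 and 0.0295; 0.63 without 2 arrays). Hoxb1 and Hoxb13, at the ends of the cluster, also went together, with r = 0.73 in females (rho = 0.73, adjusted permutation p = 0.0384 and 0.0347) and r = 0.66 in males (rho = 0.73, adjusted permutation p = 0.0101 and 0.0166), and 0.70 in either sex without 2 arrays. Hoxb3 and Hoxb9 ran against each other in females, with r = -0.76 (rho = -0.67, adjusted permutation p = 0.0356 and 0.0653; -0.72 without 2 arrays).

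In all, 8 female and 3 male pairs passed, of which 2 female and 1 male pair were adjacent measured members. Pairs of other genes were not tested in this way, so whether such counts are particular to HoxB is not known. Adjacent Hoxb7 and Hoxb9 had r = -0.58 in females, and Hoxb1 and Hoxb2 r = -0.43, without passing. The median r of adjacent measured members was 0.58 in females and 0.53 in males, over 8 pairs each. For the other 28 pairs it was -0.17 in females and 0.33 in males, and adjacent and other pairs were not tested against each other. Without the arrays that stood apart, a setting added after seeing the data, Hoxb5 with Hoxb6 in females and Hoxb1 with Hoxb13 in males passed (both adjusted p = 0.0338). The other 9 pairs kept their sign and had adjusted permutation p values of 0.0668 to 0.128.

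**Figure D4:**
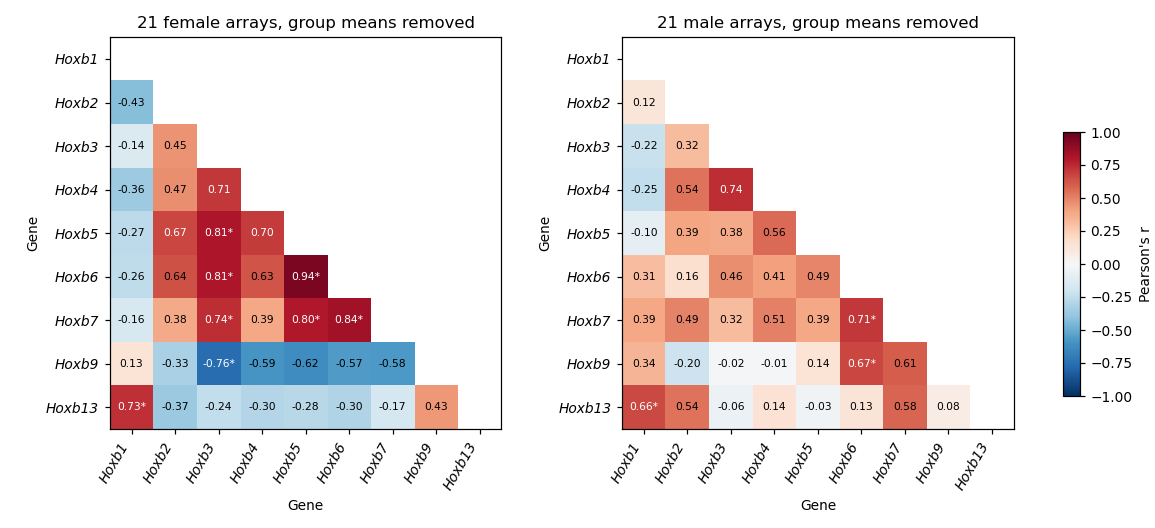
Pearson's r between HoxB genes over 21 female arrays (left) and 21 male arrays (right) after group means were removed; asterisks mark the 8 female and 3 male pairs with an adjusted permutation p below 0.05. The female panel has a block of positive values from Hoxb3 to Hoxb7 and negative values between these genes and Hoxb9.

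The genes outside the cluster whose pattern over the 21 arrays of a sex, groups included, was most like that of a called member were found by Pearson's r. For Hoxb9 in females these were Abi3 (0.92) and Camk1g (0.91). In males they were Pan2 (0.90) and Ankzf1 (0.89) for Hoxb4, Cdh4 (0.93) and Cish (0.92) for Hoxb5, and Ergic1 (0.91) and Tmc6 (0.91) for Hoxb7. For Hoxb2 they were Snapin (0.88) and Plin3 (0.87), for Hoxb3 Mtx3 (0.89) and A330023F24Rik (0.89), for Hoxb6 Ctsh (0.90) and Golph3 (0.88), and for Hoxb9 Rara (0.79) and Ppp4r1 (0.78). With 19938 genes searched, r of this size is a description only.

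In AKO and AKDH uterus, where no HoxB gene was called, genes of the other clusters were. In AKO uterus 2 of 9 HoxC genes were called, Hoxc10 (1.86, adjusted p = 0.0366) and Hoxc8 (1.46, adjusted p = 0.0419), and the HoxC median was 0.88, against 0.05 for HoxB. In AKDH uterus 5 of 9 HoxC genes were called higher, led by Hoxc8 (2.02, adjusted p = 0.00158), with a median of 0.79, against -0.16 for HoxB. Of 7 untargeted HoxA genes, Hoxa7 (0.84, adjusted p = 0.0205) and Hoxa6 (1.06, adjusted p = 0.0418) were called higher there, and of 6 untargeted HoxD genes Hoxd3 (-0.86, adjusted p = 0.00703) and Hoxd4 (-1.09, adjusted p = 0.0298) lower. Over all genes 0.0903% were called in AKO uterus and 6.58% in AKDH uterus. In AHDK uterus the HoxC median was 0.45, against -0.20 for HoxB. In DKO uterus the order differed: the HoxB median was -0.20, and those of HoxC, untargeted HoxA and untargeted HoxD were -0.03, 0.08 and -0.02, with no gene of these 4 lists called. The differences between clusters were not tested. In the vas deferens Hoxd4, the HoxD paralog of Hoxb4, was called higher in the same 2 mutants as Hoxb4, by 0.76 in AKO (adjusted p = 0.0425) and 0.73 in AKDH (adjusted p = 0.0252), from the same arrays. Hoxc10 rose there by 0.78 and 0.90 (adjusted p = 0.00705 and 0.00141), and Hoxa13 fell by 1.01 and 0.87 (adjusted p = 0.00752 and 0.00795).

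**Figure D5:**
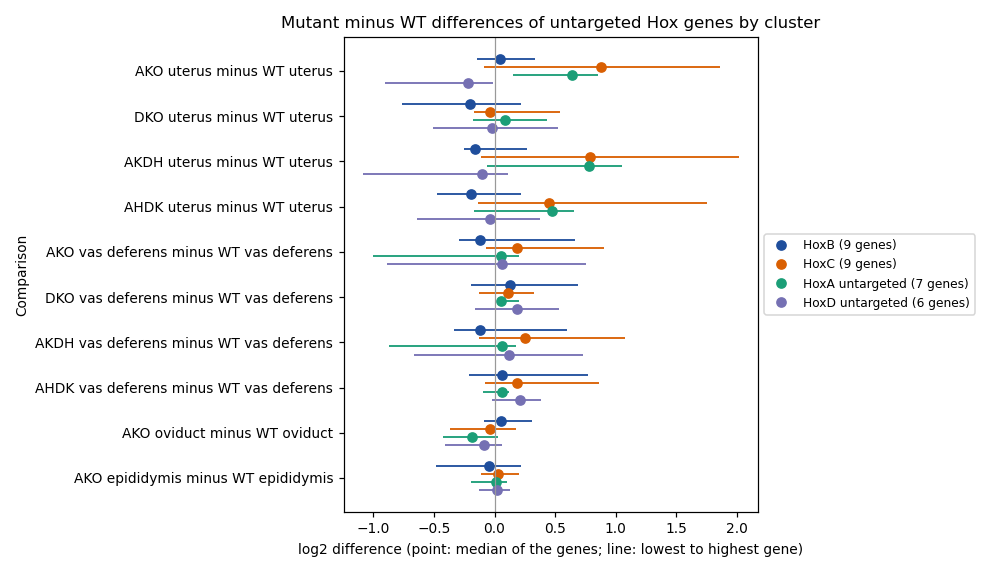
Median (point) and lowest to highest (line) log2 difference of the HoxB, HoxC, untargeted HoxA and untargeted HoxD genes in the 10 mutant minus WT comparisons. HoxB medians lie between -0.20 and 0.13, and HoxC medians reach 0.88 in AKO uterus.

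Of 18 genes that flank the HoxB cluster, 15 were measured. In AKO vas deferens 1 was called higher and 2 lower, Prr15l (0.62, adjusted p = 0.0111), Copz2 (-0.37, adjusted p = 0.0279) and Atp5g1 (-0.28, adjusted p = 0.0423). In AKDH vas deferens 2 were called higher and 2 lower, and in AHDK vas deferens 1 higher. In DKO vas deferens 2 were called higher, Ube2z (0.37, adjusted p = 0.0123) and Nfe2l1 (0.30, adjusted p = 0.0243). Over all genes 9.35% were called in AKO, 24.3% in AKDH, 5.87% in DKO and 4.15% in AHDK vas deferens. In the uterus Ube2z, a ubiquitin-conjugating enzyme, was the 1 flanking gene called, higher in AKDH and AHDK uterus by 0.33 each (adjusted p = 0.0277 and 0.0397). Over all genes 6.58% were called in AKDH and 3.53% in AHDK uterus. The median of the flanking genes lay between -0.07 and 0.05 in the 10 mutant against WT comparisons.

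Of 9 Hox partner genes 8 were measured. Pknox2, a gene of the PREP family, rose in AKO (0.91, adjusted p = 0.00153) and AKDH vas deferens (0.99, adjusted p = 0.000382). Between WT epididymis and WT vas deferens 4 of 8 partner genes were called lower, against 28.1% of all genes called. They were Pbx2 (-0.26, adjusted p = 0.00481), Meis2 (-1.10, adjusted p = 0.00611), Meis1 (-1.06, adjusted p = 0.0118) and Pbx3 (-0.37, adjusted p = 0.0145). Of 18 genes known to act on Hox clusters, such as Polycomb, Trithorax, Cdx and retinoic acid receptor genes, 3 were called higher in AKO vas deferens, among them Suz12 and Kmt2b. In DKO vas deferens 2 were called higher, Rarg and Kdm6b, and in AKDH vas deferens 4 higher and 1 lower. The shares of all genes called were 9.35% in AKO, 5.87% in DKO and 24.3% in AKDH vas deferens. In the uterus 0 were called in AKO and DKO by limma, with 3 and 5 at an unadjusted p below 0.05. In AKDH and AHDK uterus 2 and 1 were called lower. The shares of all genes called were 0.0903%, 0.973%, 6.58% and 3.53% in AKO, DKO, AKDH and AHDK uterus.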

How the data were processed

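RNA of 42 tissue samples was measured on Affymetrix whole-transcript arrays; total RNA was copied to cDNA and labelled with biotin, per the labels' protocols. The authors deposited 28856 probe sets as log values, taken as log2 values; every probe set has a median of 0 over the 21 arrays of each sex, as the values show. No source used here gives the log base or how the arrays were summarised and scaled. Gene names came from the platform annotation: 21789 probe sets had 1 symbol, 1621 several and 5446 none. Probe sets of a gene were averaged, giving 19938 genes.

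Each tissue was fitted over its own arrays, and comparisons of segments over the arrays of that sex, using lmFit and eBayes of limma 3.58.1 (R 4.3.3) and Benjamini-Hochberg adjustment over 19938 genes. All members were named in every comparison; of the other lists, called genes were named by smallest adjusted p, at most 4 a list. The fit was tested on simulated data. The HoxB members and all gene lists were chosen with earlier results of these data known. The 3 arrays of each group are biological replicates by their labels, but no animal is named, and the p-values reflect only how far these samples spread. Replicate numbers were checked as pairs: all 3 correlations of same-numbered arrays exceeded 0.1 in 4 of 42 pairs of groups. These were oviduct with uterus in AKO, AKO oviduct with WT oviduct, and epididymis with vas deferens in each genotype. In the male segments the correlations were 0.18 to 0.29 in WT and 0.14 to 0.19 in AKO. AKO and WT oviducts come from different mice, and different-numbered arrays were not compared. The correlations therefore do not show which arrays share a mouse. Alternatives were other scalings, probe sets on their own, a filter on spread, robust eBayes, a replicate block, smaller fits, marker scores as covariates, and leaving out arrays.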

Additional observations from a re-analysis of the deposited data

Results flagged for a closer look

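The AKO effect on Hoxb4 differed between the epididymis and the vas deferens by -0.73 on the log2 scale in limma's test of the difference (adjusted p = 0.0482). It was -0.06 in the epididymis and 0.67 in the vas deferens. Over 20 alternatives the difference kept its sign and was called in 5, with adjusted p values of 0.00909 to 0.115. Groups of 3 arrays are too small for a check of single outlying arrays.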

How the results depend on the processing

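No called member changed direction in any alternative run. Hoxb7 between epididymis and vas deferens (WT and AKO) and Hoxb9 between AKO oviduct and AKO uterus were called in all of theirs. In fits of only the groups compared, the number of called members was 1 in uterus mutants (main 0) and 1 in vas deferens mutants (main 3). The 1 in vas deferens mutants was Hoxb9 in AKDH, and the main calls of Hoxb4 and Hoxb3 were lost. The number was 3 between WT epididymis and vas deferens (main 4, Hoxb5 lost) and 4 between vas deferens mutants (main 2). It was 0 between WT oviduct and uterus (main 1) and 1 between AKO epididymis and vas deferens (main 2). For the male difference of AKO effects it was 0 (main 1). Quantile normalization gave 2 in vas deferens mutants (Hoxb3 lost), 1 between vas deferens mutants, 0 between WT oviduct and uterus, 2 between WT epididymis and vas deferens (main 4) and 1 between AKO epididymis and vas deferens. The genes with the larger SD gave 0 between WT oviduct and uterus, with fewer genes tested, and added Hoxb9 in AKDH vas deferens (adjusted p = 0.0473). Single probe sets gave 0 for the male difference of AKO effects, with more features tested. The adipocyte score gave 0 in vas deferens mutants. The smooth muscle score, chosen after seeing the data, gave 1 in vas deferens mutants (Hoxb3 kept, Hoxb4 lost). Between these mutants it gave 1, Hoxb6, and the main calls of Hoxb2 and Hoxb5 were lost. Between WT oviduct and uterus it gave 2, Hoxb5 and Hoxb6, and the main call of Hoxb9 was lost. It gave 3 between AKO oviduct and uterus (main 1) and 1 between AKO epididymis and vas deferens (Hoxb9 lost). Otherwise the cause was not tested.

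The replicate block gave 1 between vas deferens mutants (Hoxb2 had an adjusted p of 0.0578) and 0 for the male difference of AKO effects (Hoxb4, 0.0617). In DKO against WT vas deferens Hoxb3 had 0.0617 under the block. The block changed no other called member. Whether the replicate numbers pair arrays is not known, also for the 4 pairs of groups named above.

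Leaving out single arrays gave 0 to 1 called members in uterus mutants, 0 to 5 in vas deferens mutants, 0 to 1 between uterus mutants and 0 to 4 between vas deferens mutants. It gave 0 to 1 between WT oviduct and uterus, 2 to 4 between WT epididymis and vas deferens, 1 to 1 between AKO oviduct and uterus, 1 to 2 between AKO epididymis and vas deferens and 0 to 1 for the male difference of AKO effects. It gave 0 throughout for AKO oviduct, AKO epididymis and the female difference. The 5 came without WT vas deferens replicate 3, which added Hoxb2 and Hoxb4 in DKO. Signal over background is unknown after centring.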
